A study of Glycine max with 12 samples.

Results

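The circadian clock genes described here are 10 soybean genes: 4 copies of LHY, 2 of PRR3, 2 of LUX, and 1 each of GI (GI/E2) and ELF3 (ELF3/J). They were listed by identifier, with earlier results of these data known, and are reported whatever their values. All 10 were found among the 56877 genes of the deposited table. The names are those in use for these identifiers in soybean genetics, since the table holds identifiers only. Roots of soybean (Glycine max) were profiled by RNA-seq in 4 groups of 3 libraries each. OX_Al and WT_Al are roots of the line labelled OX and of WT given 50 µM AlCl3, and OX_CK and WT_CK are the same lines at 0 µM AlCl3. The sources used here do not say what OX stands for, which cultivar WT is, how old the plants were or at what time of day the roots were taken. Nor do they say if replicate libraries are separate plants, so each p-value rests on a spread that may be technical. In the whole organ, fewer cells of a type and less RNA per cell cannot be told apart.

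The plant clock is a loop of repressors that peak one after another through the day. LHY encodes a MYB-type repressor made around dawn, and the pseudo-response regulators (PRR) repress LHY during the day. GI is a large plant-specific protein of the evening, and ELF3 and LUX act with ELF4 in the evening complex, which in Arabidopsis represses PRR genes at night. In soybean, variants of GI/E2, ELF3/J, PRR3 and LHY are known for setting flowering time under long or short days. Each library here is 1 point on such a cycle, so a level in this report is a level at the hour of its sampling, which is not stated. Nor is it stated that the groups were sampled at the same hour. A difference in hour between groups cannot be told apart here from an effect of Al or of line.

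Library totals ran from 15923413 to 18399566 counts. Levels are given as CPM, the count divided by the TMM-scaled library size, and are compared between libraries for the same gene, not between genes, because gene lengths were not used. Genes were called by edgeR's quasi-likelihood test where the Benjamini-Hochberg adjusted p was under 0.05, and every adjusted p is from that test unless another is named. All 10 clock genes passed the filter on low counts. Root markers were not analysed, because no identifier of the table is paired with a gene description.

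With Al, some clock genes of each role were called as changed and others were not. In OX, 4 of the 10 rose, 1 fell and 5 were not called. Of all 37170 tested genes, 36.4% were called in OX, 21.2% as higher and 15.2% as lower. In WT, 3 rose, 2 fell and 5 were not called, beside 37.4% of all tested genes called, 21.5% as higher and 15.9% as lower. The members' share is 5 of 10 in both lines, so it lies near that of genes at large. The Al and CK libraries did not overlap for 7 genes in OX, 5 higher and 2 lower, beside 50.9% of all tested genes, 27.8% higher and 23.2% lower. In WT they did not overlap for 6 genes, 4 higher and 2 lower, beside 47.1% of all tested genes, 25.8% higher and 21.3% lower. The median log2 fold change of the 10 genes was 0.23 in OX and 0.20 in WT, beside -0.02 and -0.04 over all tested genes. LHY2b, ELF3/J and LUX2 rose and PRR3b fell in both lines, LUX1 rose in OX, and PRR3a fell in WT.

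**Figure D1:**
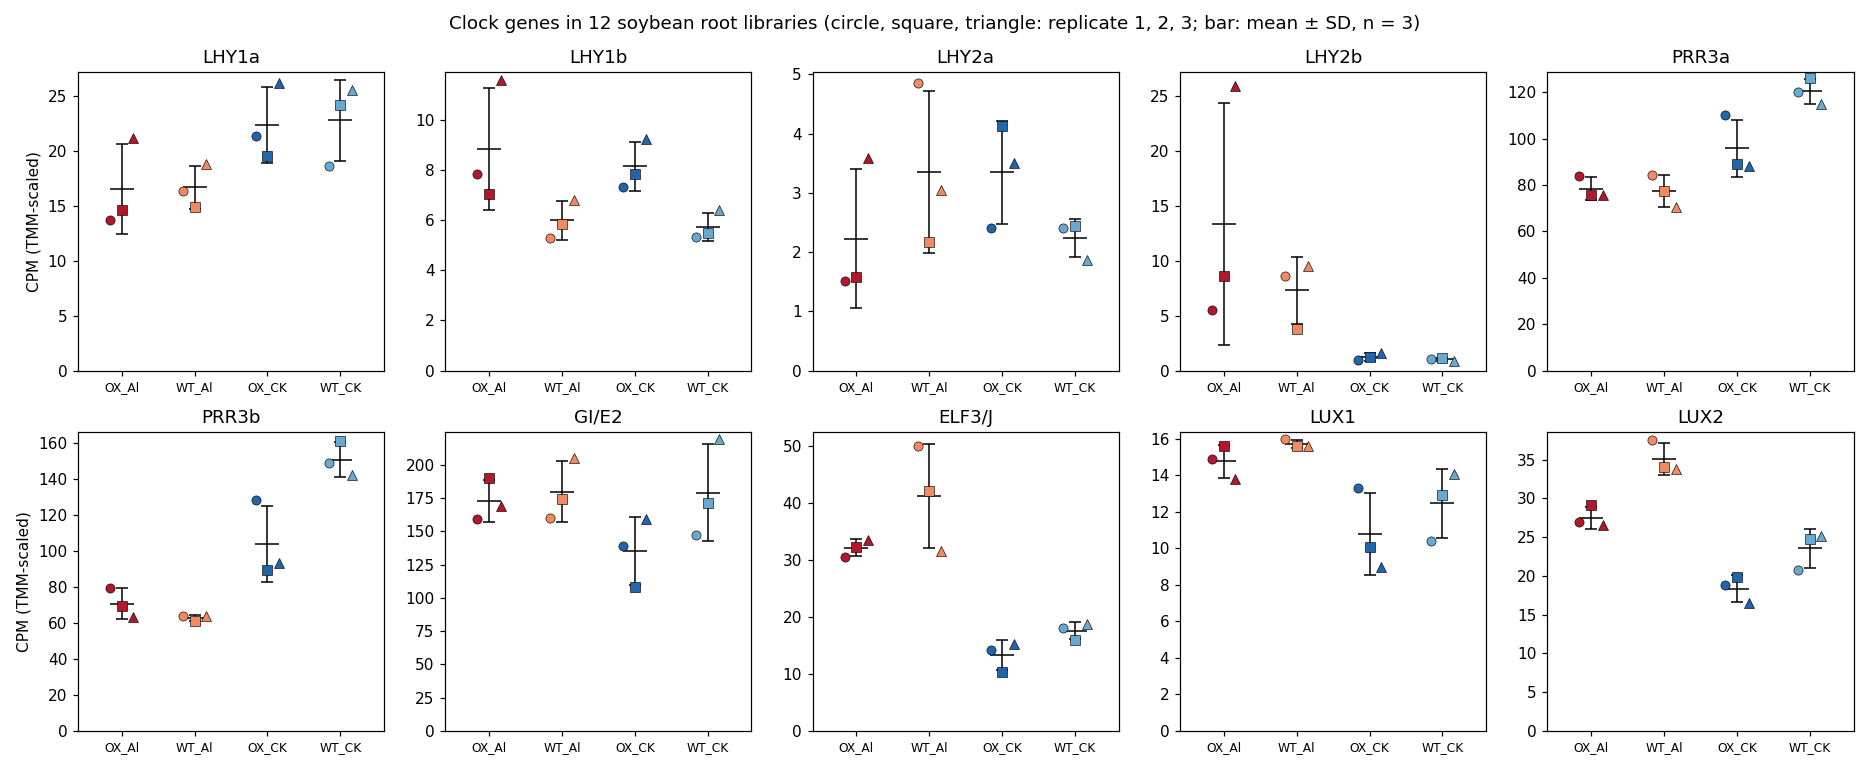
Level of each clock gene in CPM (y axis, linear from 0) in the 12 libraries, by group (x axis), with the mean ± SD of 3 libraries as bars. LHY2b lies at 3.81 CPM or more in the Al libraries and at 1.62 CPM or less in the CK libraries, while PRR3b lies at 79.6 CPM or less with Al and at 89.5 CPM or more without.

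Among the morning genes, LHY2b (Glyma.03G261800) changed most. It had 5.50, 8.61 and 25.9 CPM in OX_Al, against 0.939, 1.19 and 1.62 CPM in OX_CK. In WT_Al it had 8.62, 3.81 and 9.47 CPM, against 1.04, 1.11 and 0.876 CPM in WT_CK. Every Al library was thus above every CK library, and OX_Al replicate 3 stood far above the others. The deposited counts behind these levels were 65 to 435 with Al and 16 to 30 without. The log2 fold change of Al over CK was 3.41 ± 0.56 in OX (SE, adjusted p = 0.000646), a 10.6-fold rise. In WT it was 2.85 ± 0.57 (adjusted p = 0.00202), a 7.20-fold rise. Without OX_Al replicate 3 the value in OX was 2.49 ± 0.40 and remained called (adjusted p = 0.00108).

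The other LHY copies were not called with Al in either line. LHY1a (Glyma.16G017400) averaged 16.5 ± 4.09 CPM in OX_Al and 22.4 ± 3.45 CPM in OX_CK (SD, n = 3 each). It averaged 16.7 ± 1.94 CPM in WT_Al and 22.8 ± 3.70 CPM in WT_CK. Its log2 fold change was -0.44 ± 0.19 in OX (adjusted p = 0.0942) and -0.45 ± 0.19 in WT (adjusted p = 0.086), with overlapping groups in both lines. With the replicate number as a block, LHY1a was called in both lines. Its log2 fold change was then -0.45 ± 0.13 in WT (adjusted p = 0.0182) and -0.45 ± 0.13 in OX (adjusted p = 0.0178). Same-numbered OX libraries did not meet the rule for pairs given under processing. LHY1a was also called in WT without WT_CK replicate 1 (adjusted p = 0.0473) and in OX without OX_Al replicate 3 (adjusted p = 0.0255). In each line it stayed uncalled in 11 of the 12 fits with 1 library left out. The adjusted p there reached 0.233 in WT and 0.279 in OX.

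LHY1b (Glyma.07G048500) had a log2 fold change of 0.12 ± 0.20 in OX (adjusted p = 0.677) and 0.06 ± 0.21 in WT (adjusted p = 0.837). LHY2a (Glyma.19G260900), the copy paired with LHY2b, had 23 to 76 counts per library. It averaged 2.22 ± 1.17 CPM in OX_Al and 3.35 ± 0.868 CPM in OX_CK, and its log2 fold change was -0.59 ± 0.39 (adjusted p = 0.257). In WT_Al it averaged 3.36 ± 1.37 CPM and in WT_CK 2.24 ± 0.330 CPM, and the log2 fold change was 0.58 ± 0.39 (adjusted p = 0.26). The sign differed between the lines, but the groups overlapped in each, and the difference of -1.17 ± 0.55 was not called (adjusted p = 0.426).

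The rise of LHY2b does not show in the summed level of the 4 LHY copies. Their counts summed to 40.9 ± 18.6 CPM in OX_Al and 35.1 ± 4.74 CPM in OX_CK, and to 33.3 ± 5.88 CPM in WT_Al and 31.8 ± 3.88 CPM in WT_CK (SD, n = 3 each). The log2 fold change of the sum was 0.22 ± 0.26 in OX (adjusted p = 0.529) and 0.07 ± 0.26 in WT (adjusted p = 0.856).

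Of the day genes, PRR3b fell with Al in both lines, and PRR3a fell in WT but was not called in OX. PRR3b (Glyma.12G073900) had 79.6, 69.6 and 63.0 CPM in OX_Al, against 128, 89.5 and 93.4 CPM in OX_CK. In WT_Al it had 64.0, 61.0 and 63.7 CPM, against 149, 161 and 142 CPM in WT_CK. No Al library reached a CK library in either line, and the gap was wider in WT. PRR3b fell by 0.55 ± 0.15 on the log2 scale in OX (adjusted p = 0.0158) and by 1.26 ± 0.16 in WT (adjusted p = 6.43e-05). The call in OX ended without OX_Al replicate 3 (adjusted p = 0.0752) or without OX_CK replicate 1 (adjusted p = 0.0624), the CK library in which PRR3b was highest for OX.

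PRR3a (Glyma.U034500) had 84.0, 75.5 and 75.7 CPM in OX_Al, against 110, 88.9 and 88.4 CPM in OX_CK. In WT_Al it had 84.4, 77.4 and 70.4 CPM, against 120, 126 and 115 CPM in WT_CK. These groups did not overlap either. PRR3a fell by 0.63 ± 0.13 on the log2 scale in WT (adjusted p = 0.00252). In OX its log2 fold change of -0.29 ± 0.13 was not called (adjusted p = 0.103), although the DESeq2 Wald test called it (adjusted p = 0.0455).

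Reads of the PRR3 pair may have been divided between the copies. Both genes have values that are not whole in the same 8 libraries, and in all 8 the pair adds up to a whole number (tolerance 0.01). The sum of the pair does not depend on that division. It was 149 ± 12.9 CPM in OX_Al and 199 ± 33.4 CPM in OX_CK, and 140 ± 7.35 CPM in WT_Al and 271 ± 15.7 CPM in WT_CK (SD, n = 3 each). The sum fell by 0.42 ± 0.15 on the log2 scale in OX (adjusted p = 0.0454) and by 0.95 ± 0.15 in WT (adjusted p = 0.000418).

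**Figure D2:**
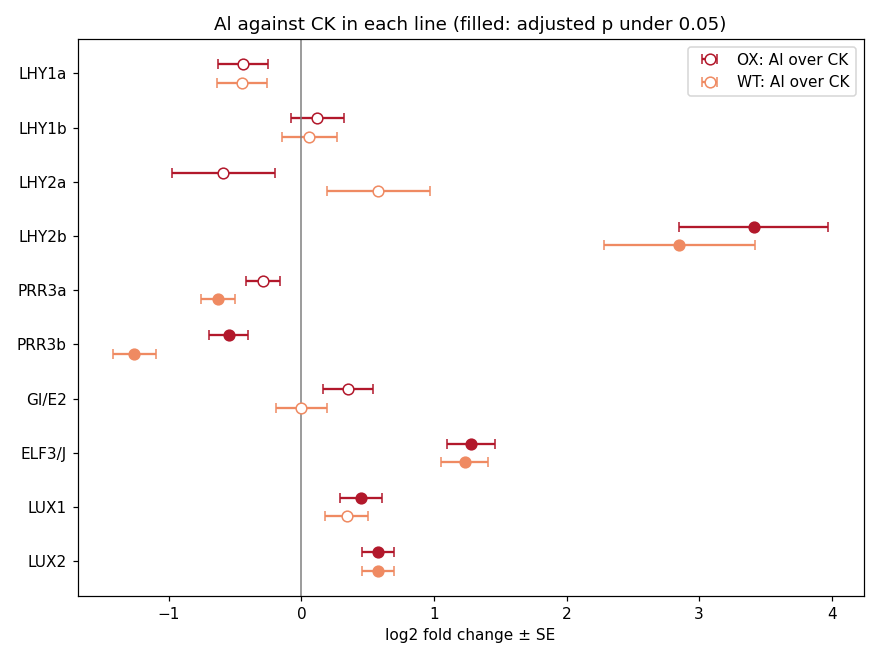
Log2 fold change of Al over CK with its SE (x axis) for each clock gene (y axis) in OX and in WT; filled points are called at an adjusted p under 0.05. LHY2b is farthest right at 3.41 in OX and 2.85 in WT, and PRR3b is farthest left in WT at -1.26.

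Among the evening genes, ELF3/J (Glyma.04G050200) rose in both lines. It had 30.5, 32.3 and 33.4 CPM in OX_Al, against 14.1, 10.3 and 15.3 CPM in OX_CK. In WT_Al it had 49.9, 42.0 and 31.6 CPM, against 18, 15.9 and 18.8 CPM in WT_CK. The lowest Al library lay well above the highest CK library of either line. The log2 fold change was 1.28 ± 0.18 in OX (adjusted p = 0.000234) and 1.23 ± 0.18 in WT (adjusted p = 0.000232), which is a 2.43-fold and a 2.34-fold rise.

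LUX2 (Glyma.11G136600), a MYB-type partner of ELF3 in the evening complex, rose by a smaller amount. It had 26.9, 29.1 and 26.5 CPM in OX_Al, against 18.8, 19.8 and 16.5 CPM in OX_CK. In WT_Al it had 37.5, 34.0 and 33.8 CPM, against 20.7, 24.8 and 25.2 CPM in WT_CK. The groups did not overlap, and the log2 fold change was 0.58 ± 0.12 in OX (adjusted p = 0.00287) and 0.58 ± 0.12 in WT (adjusted p = 0.00256). ELF3/J and LUX2 had whole counts in every library.

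LUX1 (Glyma.12G060200), the second LUX copy, had 14.9, 15.6 and 13.8 CPM in OX_Al, against 13.3, 10.1 and 8.96 CPM in OX_CK. In WT_Al it had 16, 15.6 and 15.6 CPM, against 10.4, 12.9 and 14.1 CPM in WT_CK. The Al libraries were above the CK libraries in both lines, by little. The log2 fold change was 0.45 ± 0.16 in OX (adjusted p = 0.0489) and 0.34 ± 0.16 in WT, which was not called (adjusted p = 0.123). The call in OX rests on the exact set of libraries: it ended in 9 of the 12 fits with 1 library left out, where the adjusted p reached 0.149. Over these 12 fits the log2 fold change ran from 0.33 to 0.62. The 9 fits were those without any 1 library of OX_Al or WT_Al, without OX_CK replicate 2 or 3, or without WT_CK replicate 2. The LUX copies summed were called in both lines, with log2 fold changes of 0.53 ± 0.13 in OX (adjusted p = 0.00617) and 0.50 ± 0.13 in WT (adjusted p = 0.00813).

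GI/E2 (Glyma.10G221500) was not called. It averaged 173 ± 16.1 CPM in OX_Al and 135 ± 25.4 CPM in OX_CK, and its log2 fold change was 0.35 ± 0.19 (adjusted p = 0.168). In WT it averaged 179 ± 23.2 CPM in WT_Al and 179 ± 36.7 CPM in WT_CK (SD, n = 3 each), and its log2 fold change was 0.00 ± 0.19 (adjusted p = 0.996). In OX the groups did not overlap, but only just: the lowest OX_Al library and the highest OX_CK library both round to 159 CPM. In WT they overlapped widely. Its values are not whole in any library, and in 10 of 12 libraries they add up to a whole number with those of Glyma.20G170000. The sum of these 2 genes, chosen after that was seen, was not called either, at 0.28 ± 0.19 in OX (adjusted p = 0.27) and -0.10 ± 0.19 in WT (adjusted p = 0.695).

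Whether the Al response differed between the lines was tested for each gene by the interaction of line and treatment. None of the 10 genes was called by edgeR, where 1.63% of all tested genes were, 0.88% with a higher and 0.748% with a lower response in OX. At an unadjusted p under 0.05 there was 1 of the 10, beside 12.2% of all tested genes. That gene was PRR3b, whose fall was smaller in OX by 0.71 ± 0.22 on the log2 scale (adjusted p = 0.16). The DESeq2 Wald test called it (adjusted p = 0.0263), as did the edgeR fit without OX_CK replicate 1 (adjusted p = 0.0371), while limma-voom called 0 of the 10. In 11 of the 12 fits with 1 library left out it stayed uncalled, with adjusted p up to 0.35. The difference for the sum of the PRR3 pair was 0.53 ± 0.21 and was not called (adjusted p = 0.319). For ELF3/J the difference was 0.05 ± 0.25 and for LUX2 0.01 ± 0.17, and for LHY2b it was 0.56 ± 0.79, so the last says little.

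The lines themselves were compared at each treatment. With Al, no clock gene was called between OX and WT, where 6.07% of all tested genes were, 4.16% as higher and 1.91% as lower, and 2 of the 10 had an unadjusted p under 0.05, beside 16.5% of all tested genes. DESeq2 and limma-voom also called 0. The groups did not overlap for 2 of the 10 genes, 1 higher and 1 lower in OX_Al, beside 25.6% of all tested genes, 13.2% higher and 12.4% lower. LHY1b was higher in OX_Al, with 7.86, 7.03 and 11.6 CPM, against 5.30, 5.86 and 6.81 CPM in WT_Al (log2 fold change 0.56 ± 0.21, adjusted p = 0.171). LUX2 was lower in OX_Al, at 27.5 ± 1.39 CPM, than in WT_Al, at 35.1 ± 2.07 CPM (SD, n = 3 each). Its log2 fold change was -0.35 ± 0.12 (adjusted p = 0.125).

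Without Al, no clock gene was called by edgeR either, where 4.43% of all tested genes were, 2.93% as higher and 1.5% as lower, and 5 of the 10 had an unadjusted p under 0.05, beside 16.2% of all tested genes. The groups did not overlap for 5 genes, 1 higher and 4 lower in OX_CK, beside 17.5% of all tested genes, 8.15% higher and 9.35% lower. LHY1b was the higher one, with 7.34, 7.86 and 9.25 CPM in OX_CK, against 5.32, 5.49 and 6.39 CPM in WT_CK (log2 fold change 0.51 ± 0.21, adjusted p = 0.241). The lower ones were PRR3a, PRR3b, ELF3/J and LUX2, with log2 fold changes of -0.33 ± 0.13, -0.54 ± 0.15, -0.41 ± 0.18 and -0.36 ± 0.12 (adjusted p = 0.226, 0.0749, 0.286 and 0.135). The median over the 10 genes was -0.27, beside 0.00 over all tested genes.

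Whether PRR3b was called in CK depended on the fit. With the replicate number as a block it was called lower in OX_CK (-0.56 ± 0.13, adjusted p = 0.0357). It was also called by the DESeq2 Wald test (adjusted p = 0.0092) and without OX_CK replicate 1 (adjusted p = 0.0142), and limma-voom called 0 of the 10. The mean of PRR3b in OX_CK, at 104 ± 21.1 CPM, lay between WT_CK at 151 ± 9.84 CPM and the Al groups. These had 70.7 ± 8.33 CPM in OX_Al and 62.9 ± 1.66 CPM in WT_Al (SD, n = 3 each).

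**Figure D3:**
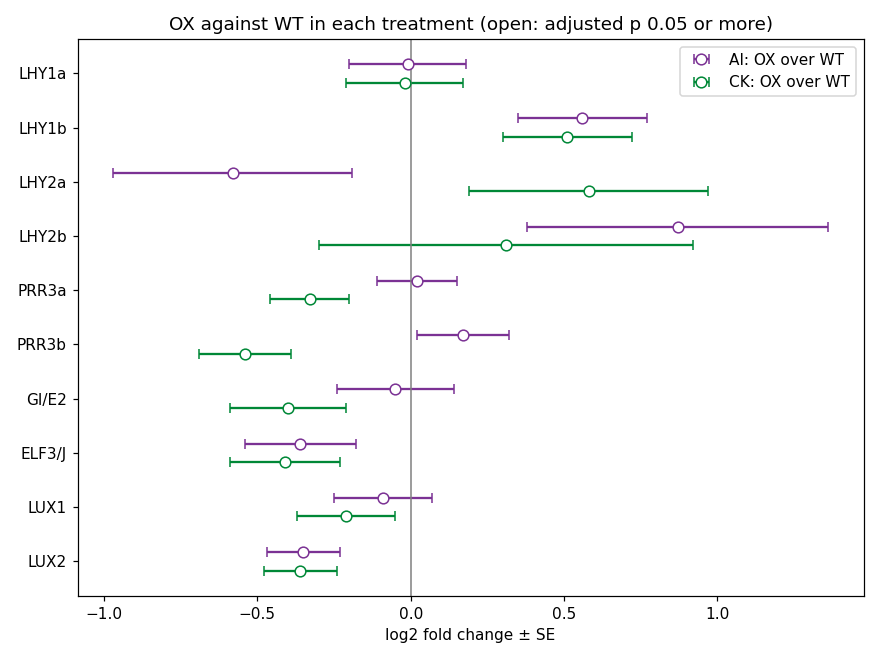
Log2 fold change of OX over WT with its SE (x axis) for each clock gene (y axis) with Al and in CK; all points are open because none was called. LHY1b lies right of 0 in both treatments, at 0.56 and 0.51, and LUX2 left of 0 in both, at -0.35 and -0.36.

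Soybean keeps these genes as pairs of copies from an ancient genome duplication, so the balance within a pair was compared as well. The log2 ratio of the counts of the copies does not depend on library scaling. It was compared with an exact two-sided permutation test that dealt the labels within lines (Al and CK) or within treatments (OX and WT), over 400 arrangements, with 0.005 as the smallest p it can give. These 8 tests were chosen after the values were seen, and their adjusted p is over the 8.

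The LHY2 pair turned over with Al. LHY2b made up 78.5%, 84.5% and 87.9% of the counts of the pair in OX_Al, against 28.1%, 22.4% and 31.6% in OX_CK. In WT_Al it made up 64.0%, 63.7% and 75.7%, against 30.2%, 31.2% and 32.1% in WT_CK. LHY2a thus held most of the counts without Al and LHY2b most of them with Al, in every library. The log2 ratio was 3.02 higher with Al (exact permutation p = 0.005, adjusted p = 0.01). Between the lines, averaged over both treatments, it differed by 0.51 (exact permutation p = 0.165, adjusted p = 0.189), but the sign was not the same in each. With Al the mean log2 ratio was 2.39 in OX_Al and 1.09 in WT_Al, without overlap, and in CK it was -1.42 in OX_CK and -1.14 in WT_CK, with overlap. The treatments were not tested apart.

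The LHY1 pair shifted with both factors. LHY1b made up 34.8% ± 2.0 of the pair in OX_Al, 26.4% ± 1.9 in WT_Al, 26.8% ± 1.7 in OX_CK and 20.3% ± 1.9 in WT_CK (SD, n = 3 each). The log2 ratio of LHY1b over LHY1a was 0.52 higher with Al than in CK and 0.55 higher in OX than in WT (exact permutation p = 0.005 for each, adjusted p = 0.01). Every OX library was above every WT library of its treatment, and every Al library above every CK library of its line. In 1 library, OX_CK replicate 3, both genes have values that are not whole, at 485.73 and 171.27 counts.

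The PRR3 pair tipped with Al as well. PRR3b held 47.4% ± 1.7 of the pair in OX_Al and 51.8% ± 1.8 in OX_CK, and 44.9% ± 2.3 in WT_Al and 55.6% ± 0.4 in WT_CK (SD, n = 3 each). The log2 ratio of PRR3b over PRR3a was lower with Al, at a difference of -0.44 (exact permutation p = 0.005, adjusted p = 0.01). Between OX and WT, averaged over both treatments, the difference was -0.04 (exact permutation p = 0.61), and here too the sign was not the same in each. The log2 ratio was 0.14 higher in OX_Al than in WT_Al, with overlapping libraries. In CK the difference of OX_CK minus WT_CK was -0.22, and every OX_CK library lay below every WT_CK library; neither was tested apart. The division of reads between these copies enters this ratio directly, and its part in the result was not tested.

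The LUX pair moved little. The log2 ratio of LUX2 over LUX1 differed by 0.17 between Al and CK (exact permutation p = 0.04, adjusted p = 0.0533) and by -0.20 between OX and WT (exact permutation p = 0.03, adjusted p = 0.048). The difference between the lines had an unadjusted p of 0.05 or more without OX_CK replicate 1, where it was -0.13, or without WT_CK replicate 1 or 2. The other pairs called here stayed at an exact permutation p of 0.01 or less without any 1 of the 12 libraries.

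**Figure D4:**
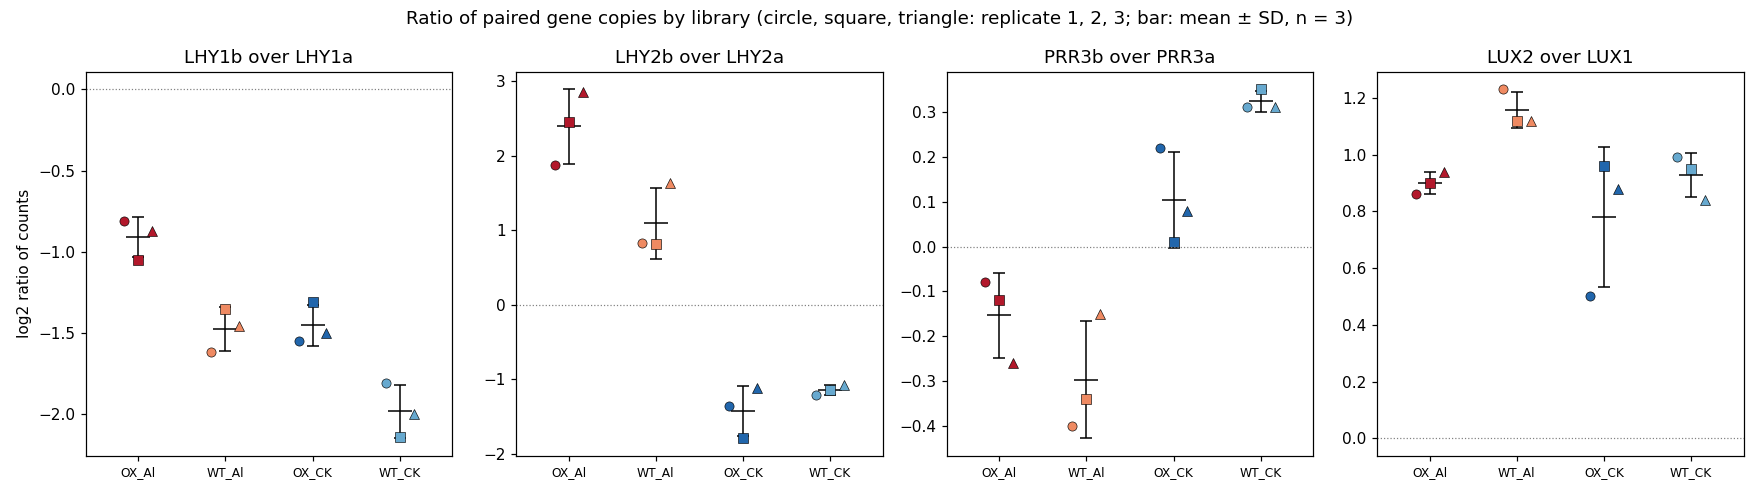
Log2 ratio of the counts of paired clock gene copies (y axis, its own scale in each panel) in the 12 libraries by group (x axis), with the mean ± SD of 3 libraries as bars. LHY2b over LHY2a averages 2.39 in OX_Al and 1.09 in WT_Al, against -1.42 in OX_CK and -1.14 in WT_CK, and LHY1b over LHY1a is highest in OX_Al at -0.91.

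Copies of a pair followed each other to different degrees over the 12 libraries. These are Pearson correlations of log2 CPM, given as descriptions, over libraries that share the split into Al and CK. By likeness to PRR3a, PRR3b ranked 4 of 37169 genes (r = 0.972). By likeness to PRR3b, PRR3a ranked 16. By likeness to LUX1, LUX2 ranked 35 (r = 0.876) and ELF3/J ranked 549 (r = 0.786). By likeness to LUX2, ELF3/J ranked 392 (r = 0.884), ahead of LUX1 at 491. By likeness to LHY1a, LHY1b ranked 13849 (r = 0.212), and by likeness to LHY2a, LHY2b ranked 8635 (r = 0.144). The PRR3 copies thus stood near the top of each other's order, the LUX copies lower, and the LHY copies far down. These correlations mix differences between groups with those within groups. LHY1a and LHY1b were both highest in the library numbered 3 in 4 of 4 groups. Reads may have been divided between the PRR3 copies, and few counts were found for LHY2a in all groups and for LHY2b in CK. The part of either in these correlations was not tested. Outside the 10 genes, the profile most like that of LHY2b was Glyma.11G066500 (r = 0.969), that of ELF3/J was Glyma.03G226700 (r = 0.985), and that of PRR3b was Glyma.12G066000 (r = 0.988).

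A wider list of 27 identifiers, written down as other clock and day-length genes, was read in the same fits. The table and the reference do not pair these identifiers with names, so they are described by counts alone. Of the 27, 19 passed the filter on low counts. With Al, 4 of the 19 rose and 2 fell in OX, where 36.4% of all tested genes were called, and their median log2 fold change was 0.12. In WT, 2 rose and 4 fell, where 37.4% of all tested genes were called, and the median was -0.26. These 6 of 19 in each line are no larger a share than that of genes at large. Between OX and WT edgeR called 0 of the 19 in either treatment, with 1 at an unadjusted p under 0.05 with Al and 5 in CK, beside 16.5% and 16.2% of all tested genes. It also called 0 for the difference of the Al response, with 4 at an unadjusted p under 0.05, beside 12.2% of all tested genes.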

How the data were processed

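The deposited table holds, for each gene and each of 12 root libraries, an estimated count to 2 decimals, unscaled and called a count per the file headers. Per the submitters' processing notes, HTSeq 0.6.0, HISAT2 2.1.0, Bowtie2 2.2.3, CASAVA and TopHat2 were used, with no role or order stated. Not given in the sources used here are the genome build, annotation, strand setting and the step that made decimals, so reads of overlapping or near-identical genes may be mixed. Of the table's rows, 8 held stray text and were left out, and 0 identifiers matched the reference table (assembly Glycine_max_v4.0).

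The design was written for counts and kept for estimated counts, rounded to whole numbers. After filterByExpr (minimum count 10, minimum total 15), 37170 genes with 99.9% of the counts were scaled by TMM and fitted in edgeR 4.0.16 (R 4.3.3) with 1 mean per group over all 12 libraries. Tests were two-sided robust quasi-likelihood F-tests, with Benjamini-Hochberg adjustment over all genes tested. Each SE is approximate, obtained by dividing the log2 fold change by √F. The fit was also run on simulated counts, drawn with the spread estimated from these data and no effect shared by same-numbered libraries. That run cannot speak to technical replicates or to such an effect. Alternatives were other scaling, no filter, rounding down, DESeq2 1.42.0, limma-voom (limma 3.58.1), fewer groups, a replicate block, summed copies and leaving out each library.

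Same-numbered libraries were taken as pairs where all 3 correlations of their deviations from group means were over 0.1. This came from the data alone and held between WT_Al and WT_CK (0.13, 0.22 and 0.36) and between OX_CK and WT_CK (0.41, 0.12 and 0.58). It did not hold between OX_Al and OX_CK (0.20, -0.004 and 0.16) or between OX_Al and WT_Al (0.033, -0.13 and -0.0032). Replicates differed beyond sampling noise (chi-square per degree of freedom 8.01 to 59.0). All 10 genes are named, and likeness names the closest genes outside them. The members, the wider list and these rules were chosen with earlier results of these data known. Sequences and promoter motifs were not analysed here.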

Additional observations from a re-analysis of the deposited data

How the results depend on the processing

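Of the 10 called results for single genes (LHY2b, PRR3b, ELF3/J and LUX2 in both lines, PRR3a in WT, LUX1 in OX), 8 kept their call and direction under other scaling, no filter, rounding down, DESeq2, limma-voom, fewer groups, the replicate block and each left-out library, and 0 reversed. PRR3b in OX and LUX1 in OX lost theirs in some fits; LUX1 also did when only the OX groups were fitted (adjusted p = 0.0748). The count of clock genes called with Al was 3 in WT and 2 in OX when a log2 fold change of at least 1 was asked for, and 3 in OX at an adjusted p under 0.01. Over the fits without 1 library it ran from 5 to 6 in WT, 4 to 5 in OX, 0 to 0 for OX against WT in Al, and 0 to 1 both for OX against WT in CK and for the difference of the response. DESeq2 gave 1 for OX against WT in CK and 1 for the difference. The replicate block gave 6 called genes in WT and 1 for OX against WT in CK. In OX, where same-numbered libraries did not meet the rule for pairs, it gave 6 (LHY1a added, adjusted p = 0.0178). That rule cannot show that the libraries are unpaired. The block changed no other call of the 10 genes.

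Signs turned only for results that were not called. LHY1a for OX against WT in Al (-0.01) was 0.00 with DESeq2 size factors or DESeq2, 0.01 without a filter and 0.02 with only the groups compared; in CK it was 0.01 with only the groups compared. Its difference of the response was -0.01 with limma-voom and 0.00 with the replicate block. Without 1 library, the Al response ranged from -0.04 to 0.15 for LHY1b and -0.12 to 0.17 for GI/E2 in WT, and from -0.13 to 0.25 for LHY1b in OX. OX against WT in Al ranged from -0.24 to 0.12 for LHY1a, -0.05 to 1.26 for LHY2b, -0.05 to 0.09 for PRR3a and -0.13 to 0.05 for GI/E2, and in CK from -0.15 to 0.08 for LHY1a. The difference ranged from -0.21 to 0.14 for LHY1a, -0.19 to 0.19 for LHY1b, -0.36 to 0.93 for LHY2b, -0.11 to 0.20 for ELF3/J, -0.01 to 0.29 for LUX1 and -0.07 to 0.09 for LUX2. The summed LHY copies turned the sign of LHY1a or LHY2a in 4 comparisons and for the difference, at 0.07 (Al in WT), 0.22 (Al in OX), 0.30 (OX against WT in Al), 0.15 (OX against WT in CK) and 0.15, and GI/E2 with Glyma.20G170000, added after seeing the data, gave -0.10 in WT; a sum holds other genes by its construction. The LUX2 over LUX1 ratio between Al and CK had an unadjusted p of 0.05 or more in 10 of 12 fits without 1 library (0.10 to 0.22 over the fits). The cause of the other changes was not tested. LHY2a, at 23 to 76 counts per library over all groups, and LHY2b, at 16 to 30 in CK, are the least precise of the 10.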

Other observations

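The library numbered 3 had the highest level of LHY1a in 4 of 4 groups, and likewise of LHY1b in 4 of 4 groups. LHY2b, GI/E2 and ELF3/J were each highest in the library numbered 3 in 3 of 4 groups. LHY2a, LUX1 and LUX2 were each highest in that library in 1 of 4 groups. PRR3a and PRR3b were highest there in 0 groups and highest in the library numbered 1 in 3 groups each. For LHY1a the library numbered 3 had 21.2 CPM in OX_Al, 18.8 CPM in WT_Al, 26.2 CPM in OX_CK and 25.6 CPM in WT_CK. The labels do not say what the numbers stand for, and the pattern was noticed after the values were seen and was not tested. The same count was not made over all genes.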
